A study of Mus musculus with 4 samples.

Results

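Rab GTPases and the proteins that regulate them were followed at their translation initiation sites in primary cultured mouse cortical neurons. Members were all transcripts of the deposited table whose gene symbol begins with Rab and a digit, Rabgef, Rabgap, Rabep, Rabif, Rabac or Tbc1d, together with the GDP dissociation inhibitors. This rule matched 66 of 6352 transcripts, 1 for each gene. They comprised 37 Rab GTPases and 29 regulators and effectors. The rule itself used no measured value, but the members were chosen with earlier results of these data known. Ribosome footprints were sequenced after treatment of the neurons with harringtonine at 5 µg/ml for 3 min. The drug holds ribosomes at the start codon, so that a footprint count at this site follows initiation on the transcript. The count also follows the amount of the mRNA, which the values used here do not give. Differences in footprints below can therefore not be told apart from differences in mRNA level.

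Each of 4 conditions had 1 library and no replicate. The neurons were either Ltn1 KO or WT, where Ltn1 encodes the ubiquitin ligase listerin of the ribosome-associated quality control pathway. Each genotype also received RNAi against Ttc3, which encodes another ubiquitin ligase, or scrambled RNAi as the control. The labels conflict on the RNAi: titles and characteristics give Ttc3 RNAi to the libraries coded SC and control RNAi to those coded TTC, whereas the codes read the other way round. Names here are KO SC, KO TTC, WT SC and WT TTC. No comparison below takes either code to be the Ttc3 RNAi, and either assignment leaves the values as they are. All 4 groups shared the cell type, the drug and its timing. The number of animals or cultures behind a library, and the part of Ltn1 that the KO removes, are not given in the sources used here.

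Rab proteins are small GTPases that give membrane compartments their identity. An exchange factor loads a Rab with GTP on its membrane, the GTP-bound Rab recruits effectors that move, tether and fuse vesicles, and a GTPase-activating protein, usually of the TBC-domain family, ends the cycle by stimulating GTP hydrolysis. A GDP dissociation inhibitor then lifts the prenylated, GDP-bound Rab off the membrane and returns it to the cytosol. In neurons this cycle serves ER-to-Golgi traffic, the docking of synaptic vesicles, the recycling of receptors through endosomes, and the transport of late endosomes along axons and dendrites.

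The libraries held 2673112 reads (SC) and 3655827 (TTC) in KO neurons, against 2096153 (SC) and 1460425 (TTC) in WT neurons, and the listed initiation sites took 6.06% to 6.85% of them. Values are RPM, reads at the initiation site scaled to the library's total reads. RPM was not divided by any length, and the window counted is not given in the sources used here. Intervals and the 3-read floor, which was 1.12 RPM (SC) and 0.821 RPM (TTC) in KO neurons, against 1.43 RPM (SC) and 2.05 RPM (TTC) in WT neurons, cover counting error only. All 10 neuronal markers had reads in every library, and none of 8 microglial markers was among the listed transcripts. Ltn1 itself had 37 reads (SC) and 0 (TTC) in KO neurons, against 10 (SC) and 2 (TTC) in WT neurons, so the library labelled KO SC goes against its genotype label by this count. Whether the initiation site lies inside the part removed is not known, and the genotype names below are those of the labels. Ttc3 had 2, 0, 3 and 0 reads in the same order, too few to check the RNAi.

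Rab GTPases carried most of the members' footprints. Summed over the 37 Rabs, the level was 740.0 RPM (SC) and 749 RPM (TTC) in KO neurons, against 736 RPM (SC) and 861 RPM (TTC) in WT neurons, whereas the 29 regulators and effectors together reached 87.9, 115, 104 and 131 RPM. Reads were found for 62 members, 40 members had reads in all 4 libraries, and 33 averaged at least 5 RPM, of which 25 were Rabs and 8 were regulators. Tbc1d15, Tbc1d16, Rab11fip3 and Rab11fip4 had no read in any library. Members without a read numbered 14 (SC) and 13 (TTC) in KO neurons, against 18 (SC) and 21 (TTC) in WT neurons, the last being the shallowest library.

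The leading members were neuronal forms of the secretory and Golgi Rabs. Rab3a, which sits on synaptic vesicles and acts in transmitter release, had 125 RPM (SC) and 131 RPM (TTC) in KO neurons, against 107 RPM (SC) and 126 RPM (TTC) in WT neurons. Rab6b, the brain-enriched Rab6 of Golgi and retrograde traffic, had 109, 98.5, 118 and 125 RPM in the same order. These levels were more than the level of any other member in each library, and Rab3a was the higher of both in all libraries but WT SC. Rab1b came next by mean level, followed by Rab18, Rab12, Rab5c, Rab5a, Rab2a, Rab3b, Rab11a and Rab6a, and the intervals of neighbours in this order overlapped in at least 1 library.

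**Figure D1:**
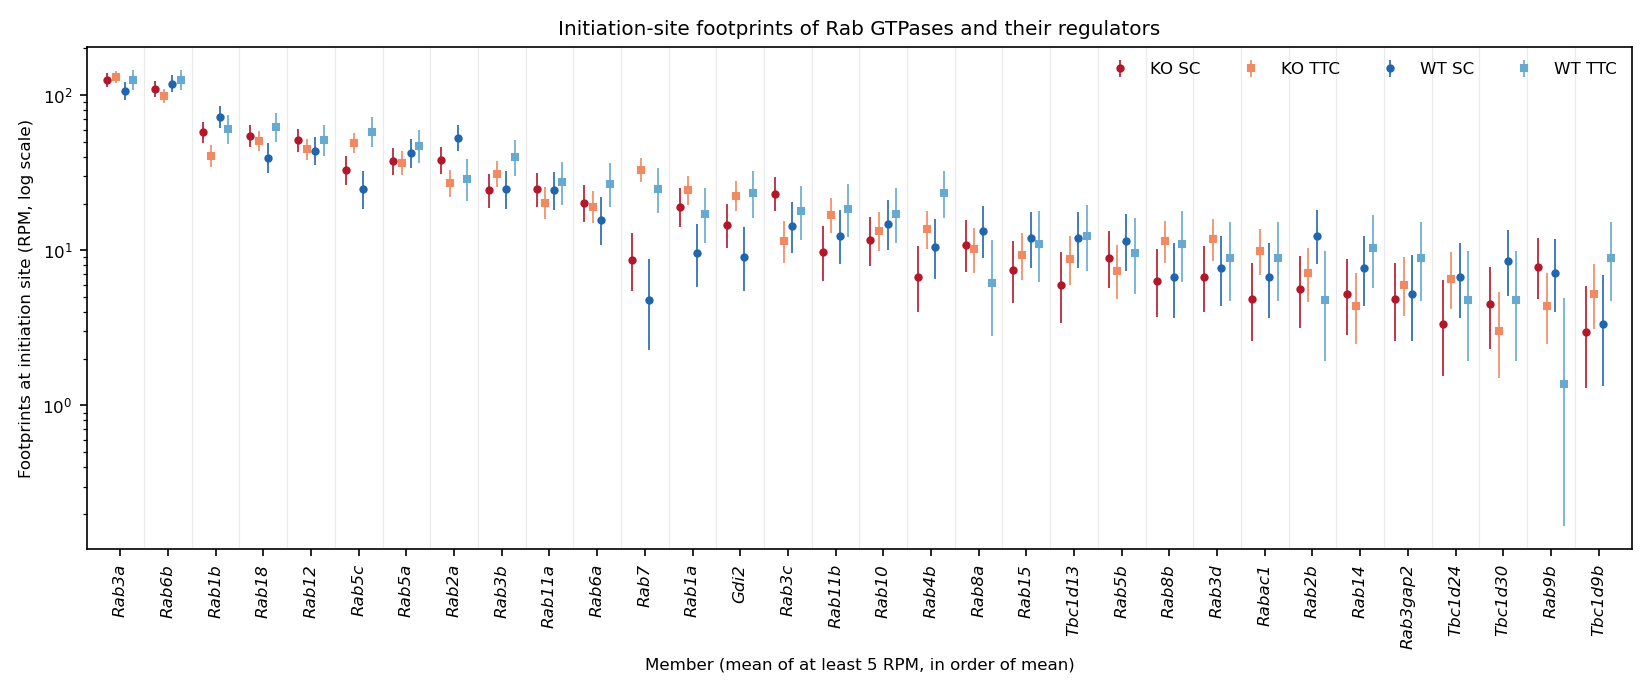
Initiation-site footprints (RPM, log scale) of 32 of the 33 members with a mean of at least 5 RPM, in order of mean level, with 1 point per library and exact Poisson 95% intervals (counting error only). Rab3a and Rab6b stood above all others, and Rab7 showed a wide gap between the SC libraries (circles, 8.60 and 4.77 RPM) and the TTC libraries (squares, 33.1 and 24.7 RPM).

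Among the 11 Rabs of the ER and Golgi, the Rab1 pair, which drives ER-to-Golgi transport, had values on opposite sides of WT in KO neurons, without passing the test described below. Rab1a (chromosome 11, 20201412 to 20226856 in GRCm38) had 19.1 RPM (SC) and 24.3 RPM (TTC) in KO neurons, against 9.54 RPM (SC) and 17.1 RPM (TTC) in WT neurons, so that both libraries labelled KO lay above both WT libraries. Rab1b (chromosome 19, 5099207 to 5106996) had 57.6 RPM (SC) and 40.8 RPM (TTC) in KO neurons, against 72.0 RPM (SC) and 60.3 RPM (TTC) in WT neurons, and both libraries labelled KO lay below both WT libraries. How common such a split by genotype label is over all transcripts was not counted. Rab18, which acts at the ER and on lipid droplets, had 54.6 RPM (SC) and 50.9 RPM (TTC) in KO neurons, against 39.6 RPM (SC) and 62.3 RPM (TTC) in WT neurons, with WT SC the lowest and WT TTC the highest. Rab2a, another Rab of the early secretory pathway, had a higher value in the SC library of each genotype, with 38.2 RPM (SC) and 27.1 RPM (TTC) in KO neurons, against 53.0 RPM (SC) and 28.8 RPM (TTC) in WT neurons. Its paralog Rab2b had 5.61, 7.11, 12.4 and 4.79 RPM in KO SC, KO TTC, WT SC and WT TTC. Rab6a, the widely expressed Rab6, had 20.2, 19.1, 15.7 and 26.7 RPM in that order. The other 4 members of the group averaged under 5 RPM, and among them Rab30 had 1 read in all, Rab33b 4 reads in KO TTC only, and Rab39b, a gene of X-linked intellectual disability, no read in either WT library.

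All 7 secretory and exocytic Rabs had reads in every library. Rab3b, a further synaptic Rab3, had 24.3 RPM (SC) and 31.2 RPM (TTC) in KO neurons, against 24.8 RPM (SC) and 39.7 RPM (TTC) in WT neurons. Rab3c had 23.2 RPM (SC) and 11.5 RPM (TTC) in KO neurons, against 14.3 RPM (SC) and 17.8 RPM (TTC) in WT neurons, with both libraries labelled KO outside the WT range on opposite sides. Rab8a, which acts in exocytosis and receptor delivery, had 10.8, 10.1, 13.4 and 6.16 RPM in KO SC, KO TTC, WT SC and WT TTC. The remaining members Rab10, Rab8b and Rab3d averaged 14.2, 8.87 and 8.76 RPM.

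The 12 Rabs of early endosomes and recycling were led by the Rab5 family, which controls fusion of early endosomes. Rab5c (chromosome 11, 100715003 to 100738215) had 32.9 RPM (SC) and 49.2 RPM (TTC) in KO neurons, against 24.8 RPM (SC) and 58.2 RPM (TTC) in WT neurons, so that both SC libraries were below both TTC libraries. Rab5a was more even, at 37.4, 36.7, 42.5 and 47.2 RPM in KO SC, KO TTC, WT SC and WT TTC. Rab11a, the Rab of recycling endosomes, had 24.7, 20.2, 24.3 and 27.4 RPM in that order. Rab4b, which serves fast recycling, had 6.73 RPM (SC) and 13.7 RPM (TTC) in KO neurons, against 10.5 RPM (SC) and 23.3 RPM (TTC) in WT neurons, and was lowest in KO SC and highest in WT TTC. Rab14 had 5.24, 4.38, 7.63 and 10.3 RPM, and Rab15 had 7.48, 9.30, 11.9 and 11 RPM, in KO SC, KO TTC, WT SC and WT TTC, so that for both genes the libraries labelled KO were below the WT libraries. Rab5a, Rab6b and Rab10, among others, showed the same split. How many of all transcripts separate in this way by genotype label, or by code as Rab5c did, was not counted. Neither split is therefore shown to be particular to any member described by it, here or in the other groups. The 6 other members averaged between 0.375 RPM for Rab31, which had no read in WT TTC, and 14.4 RPM for Rab11b. Summed, the group held 145 RPM (SC) and 165 RPM (TTC) in KO neurons, against 155 RPM (SC) and 219 RPM (TTC) in WT neurons, WT TTC being the highest.

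The 4 Rabs of late endosomes, lysosomes and autophagy were few in footprints. Rab7, the central Rab of late endosomes, had 8.60 RPM (SC) and 33.1 RPM (TTC) in KO neurons, against 4.77 RPM (SC) and 24.7 RPM (TTC) in WT neurons. Rab9, which acts in transport from late endosomes to the Golgi, had 5.61 RPM in KO SC, 4.65 RPM in KO TTC and 5.25 RPM in WT SC, while WT TTC had no read. Its paralog Rab9b had 7.86, 4.38 and 7.16 RPM in KO SC, KO TTC and WT SC and 1.37 RPM, or 2 reads, in WT TTC. WT TTC was thus the low library for both Rab9 paralogs, but not for Rab7. Rab24 had no more than 2 reads in a library and none in KO TTC. Outside these groups, Rab12 had 51.3 RPM (SC) and 44.9 RPM (TTC) in KO neurons, against 43.9 RPM (SC) and 51.4 RPM (TTC) in WT neurons, Rab40c averaged 3.96 RPM, and Rab40b had 4 reads in KO SC and none elsewhere.

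Of the regulators, Gdi2, a widely expressed GDP dissociation inhibitor, had 14.6 RPM (SC) and 22.4 RPM (TTC) in KO neurons, against 9.06 RPM (SC) and 23.3 RPM (TTC) in WT neurons, both SC libraries being below both TTC libraries. Rabac1, the prenylated Rab acceptor PRA1, averaged 7.57 RPM. Among the exchange factors, Rabgef1, which activates Rab5, had 12 reads or 4.49 RPM (SC) and 0 reads (TTC) in KO neurons, against 17 reads or 8.11 RPM (SC) and 0 reads (TTC) in WT neurons, and Rab3ip, an exchange factor for Rab8, had 6 reads in KO TTC and none elsewhere.

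The 18 genes grouped as GTPase-activating proteins were assigned by gene symbol, not by known enzyme activity. They had low levels, with 5 averaging at least 5 RPM and 2 without a read. Tbc1d13 had 5.99, 8.75, 11.9 and 12.3 RPM in KO SC, KO TTC, WT SC and WT TTC. Tbc1d24, a TBC-domain protein mutated in epilepsy, had 3.37, 6.56, 6.68 and 4.79 RPM, and Tbc1d30 had 4.49, 3.01, 8.59 and 4.79 RPM. Tbc1d9b had 2.99, 5.20, 3.34 and 8.90 RPM, again in the order KO SC, KO TTC, WT SC and WT TTC. Of these, Tbc1d13 and Tbc1d30 were lower in both libraries labelled KO than in both WT libraries. Tbc1d17 had reads in the TTC libraries alone, with 0 reads (SC) and 22 reads or 6.02 RPM (TTC) in KO neurons, against 0 reads (SC) and 17 reads or 11.6 RPM (TTC) in WT neurons. Rabgap1l had 0, 13, 2 and 4 reads in KO SC, KO TTC, WT SC and WT TTC, and Tbc1d9 had 0, 9, 0 and 2. Rab3gap1 and Rab3gap2, the catalytic and non-catalytic subunits of the enzyme that acts on Rab3, differed widely in footprints, with 1 read in all for Rab3gap1 and a mean of 6.26 RPM for Rab3gap2. Summed over the 18 genes, the level was 27.7 RPM (SC) and 48.4 RPM (TTC) in KO neurons, against 43.4 RPM (SC) and 62.3 RPM (TTC) in WT neurons. The 6 effectors were near the floor, and the highest, Rab11fip2, which links Rab11 to myosin V, had 6, 0, 1 and 0 reads in the same order.

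The comparison of Ltn1 KO with WT neurons asked whether initiation-site footprints of these transcripts differed. Its limits are that mRNA levels are not known and that the library labelled KO SC held the most Ltn1 reads. No member passed the test in either pair of libraries. For each transcript, the split of its reads between both libraries was set against their totals in an exact conditional binomial test, two-sided and adjusted by the Benjamini-Hochberg method over all transcripts with a read, at an adjusted p of 0.05. This test compares 2 libraries, not the conditions. It called 7.38% of 5355 transcripts in KO SC over WT SC, with 0 of 55 members tested, and 7.54% of 5448 transcripts in KO TTC over WT TTC, again with 0 of 55 members. At an unadjusted p of 0.05, 7 members (12.7%, beside 19.6% of all transcripts) passed in the SC-coded pair and 8 (14.5%, beside 18.8%) in the TTC-coded pair. Members with a higher value in KO numbered 25 in the SC-coded pair and 23 in the TTC-coded pair, and those with a lower value 30 and 32. Among the 33 members that averaged at least 5 RPM, the median difference on the log2(RPM + 1) scale was -0.12 in the SC-coded pair and -0.24 in the TTC-coded pair, beside -0.11 and -0.05 over the 2314 transcripts at that level.

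**Figure D2:**
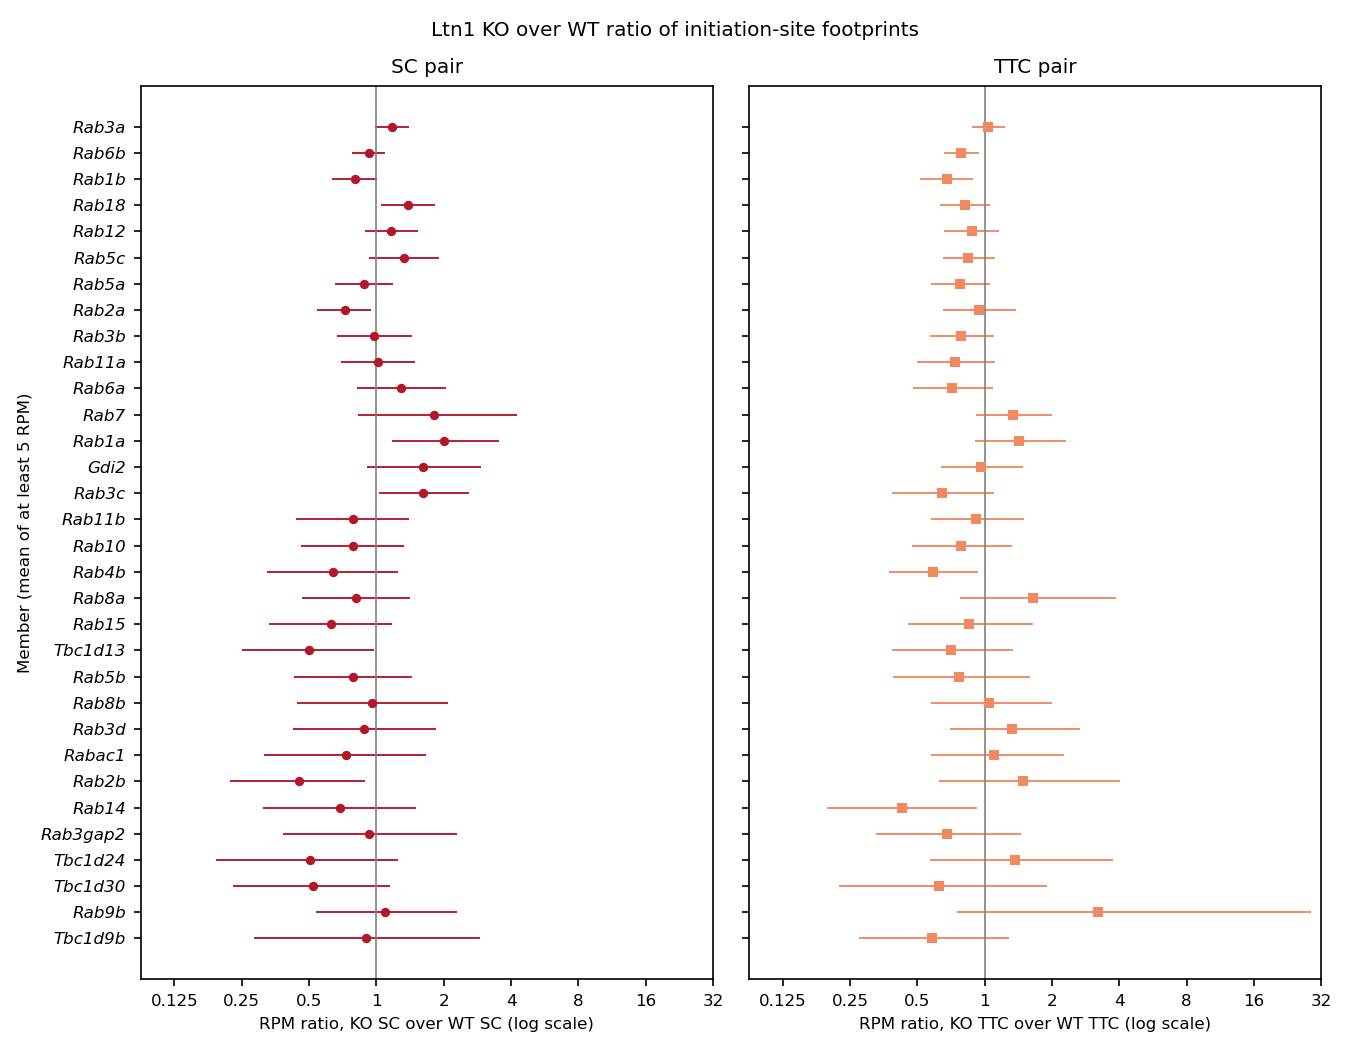
Ratio of RPM in the library labelled KO to RPM in the WT library for 32 of the 33 members with a mean of at least 5 RPM, in the SC-coded pair (left) and the TTC-coded pair (right), with exact conditional 95% intervals on a log scale (counting error only). Rab1a lay above 1 in both pairs (2.0 and 1.42) and Rab1b below 1 in both (0.80 and 0.676), and no member passed the adjusted test.

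The lowest adjusted p of each pair belonged to a Rab1 gene. Rab1a was 2.0-fold in KO SC over WT SC (95% interval 1.17 to 3.54, adjusted p = 0.086 in the exact conditional test) and 1.42-fold in KO TTC over WT TTC (0.904 to 2.31, adjusted p = 0.468). Rab1b was 0.80-fold in the SC-coded pair (0.635 to 1.01, adjusted p = 0.278) and 0.676-fold in the TTC-coded pair (0.516 to 0.891, adjusted p = 0.0616). Rab9 had 17 reads in KO TTC against 0 in WT TTC, at least 2.26-fold higher with WT TTC set at the floor (exact 95% lower limit of the ratio 1.65, adjusted p = 0.0652). The absence of calls depended on the scaling and the filter. With median-of-ratios size factors, which multiplied every RPM ratio of the SC-coded pair by 1 factor (0.14 on the log2 scale), the exact test called Rab1a (adjusted p = 0.0406), Rab18 (adjusted p = 0.036) and Rab3a (adjusted p = 0.044) higher in KO SC, where 3.73% of all transcripts were called higher. With only the transcripts of at least 5 RPM tested, Rab1b was called lower in KO TTC than in WT TTC (adjusted p = 0.0469), where 6.50% of transcripts were called lower.

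Rab18 was 1.38-fold in the SC-coded pair (1.05 to 1.83) and 0.817-fold in the TTC-coded pair (0.632 to 1.06), and Rab3c was 1.62-fold (1.03 to 2.60) and 0.645-fold (0.387 to 1.10). Whether a genotype difference itself changed between the pairs was tested for each transcript with an exact conditional test on the reads of all 4 libraries. It called 2.55% of 5955 transcripts and 0 of 62 members, with 6 members (9.68%, beside 12% of all transcripts) at an unadjusted p of 0.05. The lowest adjusted p among the members was 0.124, for Rab18, followed by 0.163 for Rab3c. These pairs of opposite values were therefore not shown to differ. In the additive limma fit over the 4 libraries, with genotype and code as terms and 1 residual degree of freedom, the genotype term called 0 of 2314 transcripts (0%), and at an unadjusted p of 0.05 it gave 86 higher and 167 lower. Rab1a alone of 33 members was at an unadjusted p under 0.05 there, with a log2 fold change of 0.71 (SE 0.28, limma adjusted p = 0.446). The edgeR quasi-likelihood test on the recovered reads called 0 transcripts for genotype as well, with 58 higher and 141 lower before adjustment at 0.05, and 92 higher and 93 lower with TMM factors.

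By compartment, early endosome and recycling Rabs had mostly lower values in KO TTC than in WT TTC, without passing the test. This held for 11 of 12 members, beside 2673 of 5448 transcripts, with a median log2 difference of -0.35 beside 0 over all transcripts, and the summed levels gave a ratio of 0.753 (95% interval 0.656 to 0.865). In the SC-coded pair, 7 of the 12 were lower, beside 2939 of 5355 transcripts, and the summed ratio was 0.936 (0.806 to 1.09). The ER and Golgi Rabs had summed ratios of 0.941 (0.849 to 1.04) in the SC-coded pair and 0.825 (0.740 to 0.922) in the TTC-coded pair. Late endosome, lysosome and autophagy Rabs lay on the other side, at 1.26 (0.826 to 1.94) and 1.58 (1.10 to 2.30). In each pair 3 of their 4 members had a higher value in KO, beside 2416 of 5355 transcripts in the SC-coded pair and 2775 of 5448 in the TTC-coded pair. The secretory and exocytic Rabs stood at 1.11 (0.970 to 1.26) and 0.972 (0.854 to 1.11). Summed over all members, KO TTC held 865 RPM and WT TTC 993 RPM (ratio 0.871, 0.818 to 0.927), while KO SC held 828 RPM and WT SC 839 RPM (ratio 0.987, 0.926 to 1.05). For the genes grouped as GTPase-activating proteins the summed ratio was 0.638 (0.463 to 0.876) in the SC-coded pair and 0.777 (0.60 to 1.01) in the TTC-coded pair. All listed sites together took 6.06% of the reads in KO SC against 6.38% in WT SC, and 6.70% in KO TTC against 6.85% in WT TTC. The intervals of these summed ratios cover counting error only. Members varied by more than that between libraries, as given below, so the intervals are too narrow and no group is shown to differ by genotype. Summed markers of astrocytes were also lower in KO in both pairs, with 113 RPM (SC) and 173 RPM (TTC) in KO neurons, against 192 RPM (SC) and 229 RPM (TTC) in WT neurons, for 7 of 8 markers listed. Those of the oligodendrocyte lineage were lower as well, with 12 RPM (SC) and 39.7 RPM (TTC) in KO neurons, against 37.7 RPM (SC) and 66.4 RPM (TTC) in WT neurons, for 6 of 9 listed. Among these markers, Aqp4, Gja1 and Mbp had 0 reads in at least 1 library, and the 10 neuronal markers summed to 2367 RPM (SC) and 2216 RPM (TTC) in KO neurons, against 2098 RPM (SC) and 2004 RPM (TTC) in WT neurons. The part of other cells in the members' values was not tested, and fewer cells of a type cannot be told apart from fewer footprints per cell.

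Between the RNAi codes, 13 members were called in at least 1 genotype. Rab7, Rab5c and Tbc1d17 were lower, and Rabgef1 was higher, in the SC library than in the TTC library of both genotypes. The exact conditional binomial test called 16.6% of 5623 transcripts in KO SC over KO TTC and 10.8% of 5345 transcripts in WT SC over WT TTC. Among the members, 8 of 61 tested (13.1%) were called in the KO comparison and 9 of 50 (18%) in the WT comparison, a share below that of all transcripts in KO and above it in WT. In KO, 4 members were called higher in SC, beside 5.71% of all transcripts, and 4 lower, beside 10.9%. In WT, 3 were higher, beside 3.82%, and 6 were lower, beside 7.02%. The KO and WT comparisons share no library with each other, but each library also enters a genotype pair above. The 4 members called in the same direction in both made up 50% of the members' KO calls and 44.4% of their WT calls, and over all transcripts 228 were called in both, 207 of them in the same direction, with the 228 making up 24.4% of the KO calls and 39.4% of the WT calls.

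**Figure D3:**
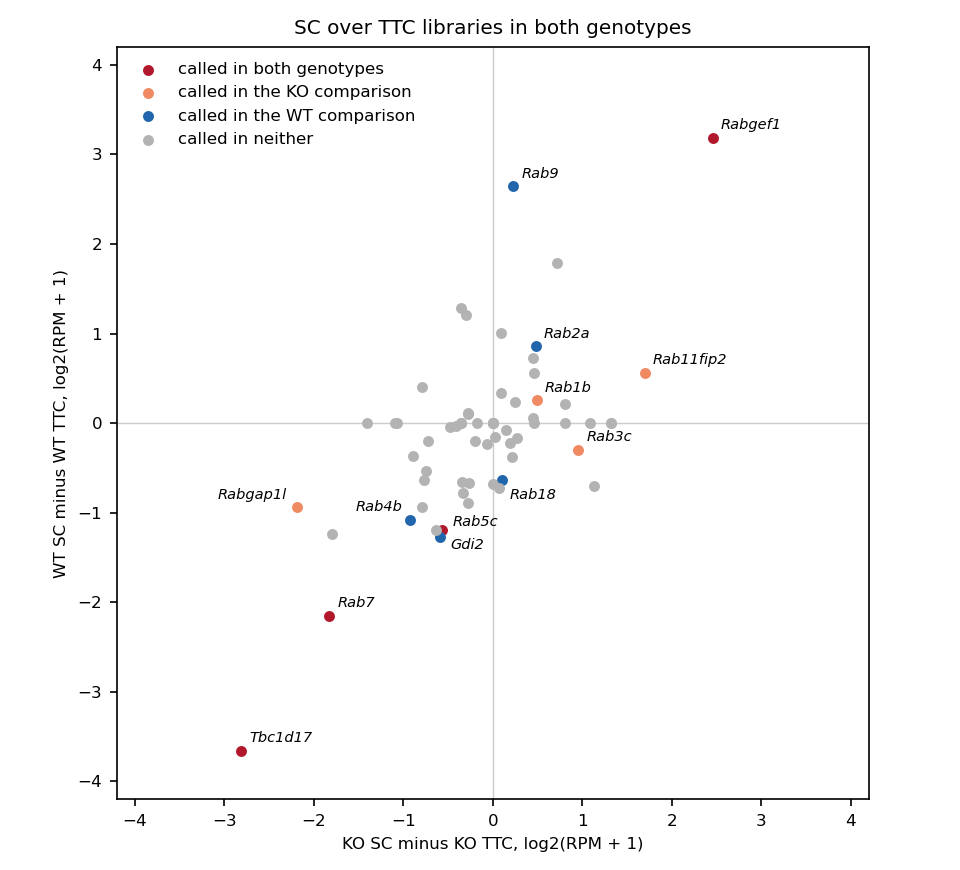
Difference between the SC and the TTC library on the log2(RPM + 1) scale in Ltn1 KO (x axis) and in WT (y axis), 1 point for each member given by itself, coloured by the exact conditional test at an adjusted p of 0.05. Tbc1d17 (-2.81 and -3.66), Rab7 (-1.83 and -2.15) and Rab5c (-0.57 and -1.20) were lower and Rabgef1 (2.46 and 3.19) was higher in SC in both genotypes.

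Rab7 (chromosome 6, 87999106 to 88045270 in GRCm38) had 23 reads (SC) and 121 (TTC) in KO neurons, against 10 reads (SC) and 36 (TTC) in WT neurons. The ratio of RPM was 0.260 in KO (95% interval 0.159 to 0.408, exact conditional test, adjusted p = 4.26e-09) and 0.194 in WT (0.0857 to 0.398, adjusted p = 3.68e-05). It was called in both genotypes under all alternatives of scaling and filter. Over the 4 libraries, its log2 fold change was -1.99 (SE 0.29) in the limma fit, with an adjusted p of 0.0502, and the edgeR quasi-likelihood test gave an adjusted p of 0.0718.

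Tbc1d17, a TBC-domain GTPase-activating protein (chromosome 7, 44840776 to 44849079), was at least 5.36-fold lower in KO SC than in KO TTC (exact conditional test, 95% upper limit of the ratio 0.25, adjusted p = 0.000207) and at least 8.13-fold lower in WT SC than in WT TTC (upper limit 0.169, adjusted p = 2.31e-05), with SC set at the floor of 3 reads per library, which allows for less counting error than the limits do. Rabgef1 (chromosome 5, 130171819 to 130214342) was at least 5.47-fold higher in KO SC than in KO TTC (95% lower limit of the ratio 3.80, adjusted p = 0.000623) and at least 3.95-fold higher in WT SC than in WT TTC (lower limit 2.88, adjusted p = 0.00435), again by the exact conditional test. Both genes were thus without a read in both libraries of 1 code. Such genes, with 0 reads in both libraries of a code and more than 3 in each library of the other, numbered 166 of 6352 transcripts (2.61%), and 2 of 66 members (3.03%). The same pattern by genotype held for 80 transcripts (1.26%) and for 0 members.

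**Figure D4:**
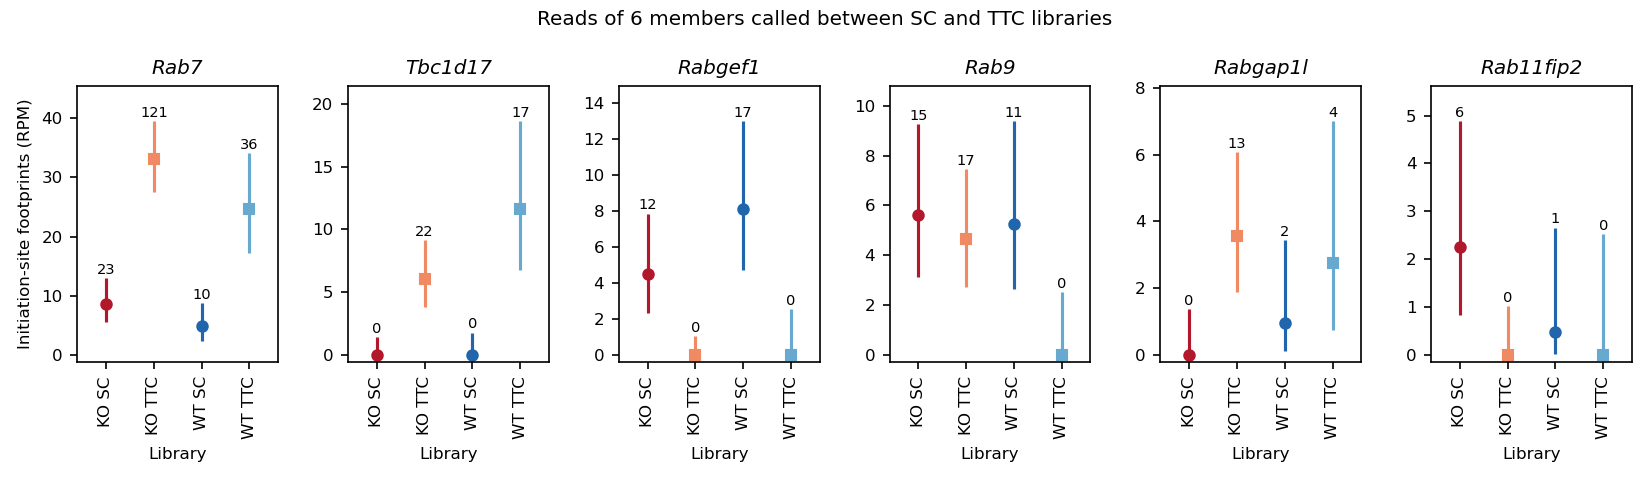
Initiation-site footprints (RPM) of 6 members called between SC and TTC libraries, with exact Poisson 95% intervals (counting error only) and the number of reads above each point. Tbc1d17 had no read in either SC library and Rabgef1 none in either TTC library, while Rab9 was without reads in WT TTC and Rab11fip2 in both TTC libraries.

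Rab5c was 0.669-fold in KO SC over KO TTC (0.512 to 0.867, exact conditional test, adjusted p = 0.0169) and 0.426-fold in WT SC over WT TTC (0.296 to 0.609, adjusted p = 5.54e-05). The KO call was lost with libraries rescaled to the same sum (adjusted p = 0.103) or with median-of-ratios factors (adjusted p = 0.142). In KO, Rab1b was 1.41-fold (1.12 to 1.78, adjusted p = 0.0237) and Rab3c 2.02-fold (1.34 to 3.06, adjusted p = 0.00544) in the same exact test. Rab11fip2 was at least 2.74-fold higher (lower limit of the ratio 1.61, adjusted p = 0.0385) and Rabgap1l at least 3.17-fold lower (upper limit 0.449, adjusted p = 0.0103) in KO SC than in KO TTC against the floor. In WT, Rab2a was 1.84-fold (1.28 to 2.69, adjusted p = 0.00947), Gdi2 was 0.389-fold (0.210 to 0.702, adjusted p = 0.0158), and Rab9 was at least 2.55-fold higher in WT SC than in WT TTC (lower limit 1.75, adjusted p = 0.0409). Rab18 was 0.635-fold (0.466 to 0.865, adjusted p = 0.0358) and Rab4b 0.451-fold (0.251 to 0.793, adjusted p = 0.041) in the WT comparison, and both calls were lost under both other scalings, with exact-test adjusted p between 0.0792 and 0.0951. Rab2a was also higher in KO SC than in KO TTC under both (adjusted p = 0.0184 and 0.0126).

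Over the 4 libraries the code term of the limma fit called 1 of 2314 transcripts (0.0432%) and 0 of 33 members, with Rab7, Rab5c, Rab4b, Gdi2 and Rab2a at an unadjusted p under 0.05. Without the filter on level, limma called 286 of 5955 transcripts (4.80%) and 4 members, Rab7 (adjusted p = 1.24e-06), Tbc1d17 (adjusted p = 0.000374), Rabgef1 (adjusted p = 0.00475) and Rab5c (adjusted p = 0.0089). The edgeR test called 0 transcripts for the code, with 111 higher and 285 lower before adjustment at 0.05, and 164 higher and 179 lower with TMM factors. Reads of the members varied between libraries by more than counting error, with a mean Pearson statistic over members of at least 20 reads of 4.01 in the KO comparison and 4.24 in the WT comparison of codes, against 2.07 in the SC-coded pair and 2.06 in the TTC-coded pair of genotypes, where counting error alone gives about 1. Over all transcripts of at least 20 reads it was 5.12, 4.15, 3.28 and 3.17 in the same order, so the larger spread between codes was not particular to the members. The marker sums also differed between codes, being lower in SC than in TTC in both genotypes for astrocytes and the oligodendrocyte lineage, and their part in these calls was not tested.

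Paralogs of a Rab family have related roles, and their shares of the family's footprints do not depend on the scaling of a library. Rab1 was the family in which the paralogs' intervals did not overlap between genotypes in either pair. Rab1a made up 24.9% of its reads in KO SC (95% Clopper-Pearson interval 19.1 to 31.4) against 11.7% in WT SC (7.29 to 17.5), and 37.4% in KO TTC (31.2 to 43.9) against 22.1% in WT TTC (14.9 to 30.9). The share was also larger in TTC than in SC within each genotype, and the intervals of KO SC and WT TTC overlapped. In the TTC-coded pair the intervals were barely apart (31.2 and 30.9), and they cover counting error only. This family was singled out after its values were seen, and no test was made of the share. In the Rab3 family, Rab3a held 69.8% (SC) and 70.6% (TTC) of the reads in KO neurons, against 69.6% (SC) and 65.5% (TTC) in WT neurons, and Rab6b held 84.4%, 83.7%, 88.3% and 82.4% of those of Rab6 in the same order, with overlapping intervals for both paralogs across the libraries. Rab3c, in the same family as Rab3a, held 12.9% (10.0 to 16.3) in KO SC and 6.20% (4.51 to 8.29) in KO TTC, intervals that did not overlap, and 9.32% in WT SC and 9.25% in WT TTC.

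In the Rab5 family, the share of Rab5c was smaller in SC than in TTC in both genotypes. Rab5c made up 41.5% of the Rab5 reads in KO SC (34.8 to 48.5) and 52.8% in KO TTC (47.3 to 58.2), and 31.5% in WT SC (24.5 to 39.2) and 50.6% in WT TTC (42.8 to 58.4). The intervals overlapped in KO neurons but not in WT neurons. Rab4a held 47.1% of the Rab4 reads in KO SC (29.8 to 64.9), above the 13.8% in KO TTC (6.15 to 25.4), on 34 and 58 reads. How reads that match more than 1 place were treated is not given in the sources used here, so the division of reads between close paralogs is uncertain.

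**Figure D5:**
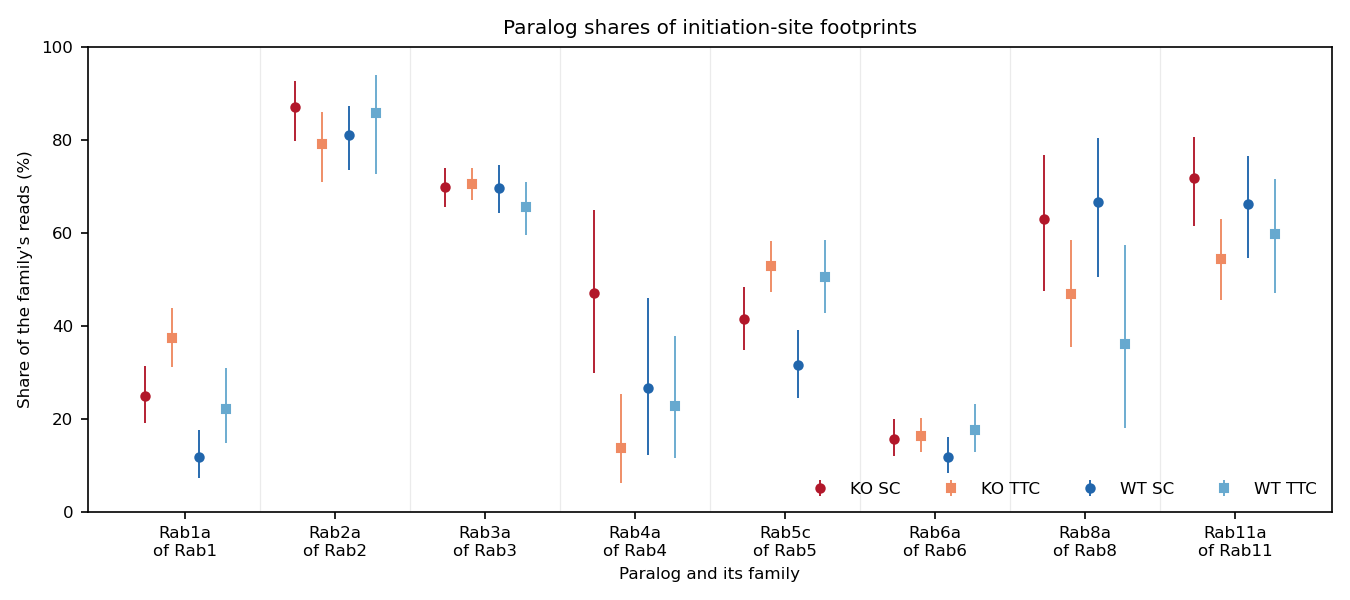
Share (%) of a family's initiation-site reads held by the named paralog in each library, with exact Clopper-Pearson 95% intervals (counting error only). Rab1a had a larger share in KO SC than in WT SC (24.9% and 11.7%) and in KO TTC than in WT TTC (37.4% and 22.1%). Its share was also larger in TTC than in SC within each genotype. The share of Rab3a stayed between 65.5% and 70.6%.

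A wider list of 118 genes of the Rab cycle outside the rule (prenylation, other exchange factors and GTPase-activating proteins, effectors) had 51 transcripts in the table. None of 37 tested was called in KO SC over WT SC. In KO TTC over WT TTC, 4 of 44 were called by the exact conditional test (9.09%, beside the 7.54% of all transcripts). Fam45a, a DENN-domain gene, had 24 reads in KO TTC and 0 in WT TTC (adjusted p = 0.0114), Rabl2 had 20 and 0 (adjusted p = 0.0315), and Vps41, a HOPS tethering subunit that acts with Rab7, had 25 and 1 (adjusted p = 0.048). Rufy2 was lower, with 17 reads in KO TTC and 22 in WT TTC (adjusted p = 0.00814). WT TTC was thus the library without reads for Fam45a and Rabl2, as it was for Rab9.

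Between codes, 5 of 45 of these genes (11.1%, beside 16.6% of all transcripts) were called in KO, all lower in SC, and 4 of 43 (9.30%, beside 10.8%) in WT, with Fam45a and Rabl2 higher and Rufy2 and Trappc6b lower in SC. Rufy2 resembled Tbc1d17, with 0 reads (SC) and 17 (TTC) in KO neurons, against 0 (SC) and 22 (TTC) in WT neurons. Trappc6b, a subunit of the TRAPP exchange complexes, had 7 reads (SC) and 34 (TTC) in KO neurons, against 0 (SC) and 14 (TTC) in WT neurons, and was likewise called in both genotypes (exact-test adjusted p = 0.0085 and 0.00018). Sgsm1, a further GTPase-activating protein, was called in KO neurons with 9 reads (SC) and 48 reads (TTC, adjusted p = 0.000704), and it had 18 and 26 reads in WT SC and WT TTC. At a mean of at least 5 RPM, the 3 highest signed genotype differences were those of Trappc6b, Fam45a and Trappc5 in the SC-coded pair. In the TTC-coded pair they were those of Fam45a, Rabggta and Trappc4. Trappc4 had 19.5 and 17.2 RPM in KO SC and KO TTC, and 18.1 and 13.7 RPM in WT SC and WT TTC. Trappc5 had 13.1, 18.1, 11.4 and 15.7 RPM in that order. Rabggta, a subunit of the enzyme that prenylates Rabs, had 6.36, 9.85, 8.59 and 4.11 RPM, and was higher in KO in the TTC-coded pair only. The 3 lowest were those of Sgsm1, Trappc9 and Gorasp2 in the SC-coded pair, and of Appl1, Myo5a and Trappc9 in the TTC-coded pair. All of these had lower values in KO in both pairs, and none was called in a genotype pair. Trappc9 had 5.24, 6.29, 11.4 and 9.59 RPM, and Gorasp2 had 8.98, 10.9, 15.3 and 13 RPM. Myo5a had 7.48, 7.39, 11 and 13 RPM, and Appl1 had 5.61, 4.65, 7.16 and 8.90 RPM.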

How the data were processed

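Harringtonine Ribo-seq was analysed in 4 libraries. The authors deposited RPM at initiation sites for 6352 transcripts (GRCm38/mm10). The submitters' notes name Bowtie, SAMtools and bedtools without versions, and the annotation, the window and the treatment of multi-mapped reads are not given in the sources used here. Each value was a multiple of what 1 read is worth, to a tolerance of 1e-06 (largest deviation 1.36e-11, 100% of values), so reads and library totals were recovered from the deposited RPM. Symbols came from Dataset S1 by transcript identifier for 6349 transcripts, after 38 identifiers with an extra zero had been mended, 1 of them a member's (Rab3d). Gene positions follow RefSeq (GRCm38.p6), in which all 66 symbols were found.

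Libraries were compared with two-sided exact conditional tests on reads, with differences on the log2(RPM + 1) scale, which understates changes of low genes, and with additive limma 3.58.1 fits of transcripts averaging at least 5 RPM. The edgeR 4.0.16 quasi-likelihood test, other scalings, a pseudocount of 0.1 RPM and other filters were alternatives. Adjusted p-values are Benjamini-Hochberg values over all transcripts tested, also where members alone are given. The tests were run on simulated reads drawn with counting error only. That check cannot show how they behave under the larger spread between these libraries. Members and gene lists were chosen with earlier results of these data known. Named with values were members called in any test, the 12 with the highest mean, and the 5 largest and 5 smallest genotype differences of each pair at a mean of at least 5 RPM, and of the wider list the 3 largest and 3 smallest. Counts and sums cover every member, but 1 member is not reported here by itself. Genes outside this rule were named after their values were seen. Python 3.11.15 (numpy 2.4.6, pandas 2.3.3, scipy 1.17.1, matplotlib 3.10.9) and R 4.3.3 were used.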

Additional observations from a re-analysis of the deposited data

How the results depend on the processing

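With 1 library a condition, no library could be left out and no spread between replicates is known. No paired analysis was possible because each condition has 1 library and the labels carry no replicate numbers. A pseudocount of 0.1 RPM cannot change a sign or the exact test, which uses reads. It widened the log2 differences of low members, to -5.93 (-2.81 as reported) for Tbc1d17 and 5.52 (2.46) for Rabgef1 in KO SC over KO TTC. Median-of-ratios factors moved the log2 ratio of RPM by 0.14 in the SC pair, 0.06 in the TTC pair, 0.17 in KO SC over KO TTC and 0.10 in WT SC over WT TTC, and moved log2(RPM + 1) differences of low members by other amounts. Members called higher in KO SC over WT SC then numbered 3 rather than 0, and transcripts called lower in KO SC over KO TTC 388 rather than 613, with 420 rather than 321 higher. The same sum in every library gave 401 higher and 410 lower there, 158 and 200 in the SC pair, and 234 and 285 in WT SC over WT TTC. Median-of-ratios factors gave 200 and 178 in the SC pair, against 141 and 254 as reported.

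Some uncalled members turned round, on the log2(RPM + 1) scale. With the same sum in every library the differences became 0.044 for Rab3b in KO SC over WT SC, 0.083 for Rab3a in KO SC over KO TTC, and 0.021 for Rab6b and 0.052 for Tbc1d13 in WT SC over WT TTC. With median-of-ratios factors they became 0.024 for Rab6b and 0.107 for Rab3b in KO SC over WT SC, 0.0063 for Gdi2 in KO TTC over WT TTC, 0.113 for Rab3a in KO SC over KO TTC, and 0.012 for Rab6b and 0.044 for Tbc1d13 in WT SC over WT TTC. Rab6b was then called higher in KO SC than in KO TTC (exact-test adjusted p = 0.0371). The filter at 5 RPM, which leaves fewer transcripts to test, gave 70 higher in KO SC over WT SC (141 as reported), 108 higher and 150 lower in KO TTC over WT TTC (171 and 240) with 1 member lower (0), 154 higher in KO SC over KO TTC (321) with 2 members higher (4), and 239 lower in WT SC over WT TTC (375) with 1 member higher (3). Rab4b was then called lower in KO SC than in KO TTC (exact-test adjusted p = 0.0402). Without its filter on level, limma called 64 transcripts for genotype (0) and 286 for code (1), with 4 members for code (0), and edgeR called 0 for code with either normalization. For these counts the cause was not tested beyond the number of transcripts tested.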
